A study of Danio rerio with 9 samples.

Results

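The comparison described here set skeletal muscle of exercised bves knockout zebrafish against skeletal muscle of unexercised wild-type zebrafish. It used the 3 libraries labelled bves KO-EX and the 3 libraries labelled WT, chosen by those labels, which are 6 of the 9 RNA sequencing libraries of the study; the other 3, labelled bves KO, came from unexercised knockouts and are given beside the results for orientation. By the account of the study, fish labelled bves KO-EX and bves KO carried a whole-body frameshift deletion in exon 2 of bves, made with CRISPR/Cas9. The study made 3 such lines, and which one gave the libraries is not stated in the sources used here. The WT fish were of the AB strain, all fish were males aged 12 months when they were selected, and each library pooled the muscle of 2 fish. The bves KO-EX fish swam against a current in a swim tunnel for 8 weeks, in sessions of 1.5 h on 3 days in a row followed by 1 rest day, at about 10 cm/s up to week 2 and about 16 cm/s afterwards. The WT and bves KO fish were not trained. No exercised wild type was sequenced. By the labels, genotype and training both differ between bves KO-EX and WT, and their parts in any difference below cannot be told apart.

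Bves, also called Popdc1, is a membrane protein of heart and skeletal muscle with a Popeye domain that binds cyclic AMP, and mutations of human BVES cause a limb-girdle muscular dystrophy with disturbed heart rhythm. Muscle mass reflects the balance between protein synthesis, which runs through ribosomes under control of insulin and mTOR signalling, and breakdown, in which FoxO transcription factors, ubiquitin and the proteasome take part. Endurance training is known to act on mitochondria, capillaries, fibre type and the extracellular matrix of muscle. The results are therefore ordered by these roles, after the check of the targeted gene.

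The targeted gene did not match its label in every library. The level of bves transcript was 47.4, 11.4 and 49.6 CPM (counts scaled to a library of 1000000) in bves KO-EX libraries 1, 2 and 3. The other knockout libraries, labelled bves KO, held 7.94, 17.5 and 6.70 CPM, and the WT libraries held 39.5, 57.2 and 43.8 CPM. Libraries bves KO-EX 1 and 3 thus lay inside the WT range, and only bves KO-EX 2 lay inside the range of the bves KO libraries. The difference between bves KO-EX and WT was -0.37 ± 0.52 on the log2 scale (SE, edgeR adjusted p = 0.695), and an exact two-sided permutation test of the CPM gave p = 0.7, where 0.1 is the smallest p that 3 against 3 libraries can give. A frameshift deletion need not lower the transcript, although the level was low in the bves KO libraries and in bves KO-EX 2. Reads over the deletion were not examined here, so the genotype of bves KO-EX 1 and 3 was not tested. For this reason bves KO-EX below always means the libraries so labelled, and the main results are also given with libraries 1 and 3 left out.

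Depth was close between the groups. Total counts were between 17422188 and 18860779 per library over all 9 libraries, and sums over 11 genes of muscle were 135712, 142837 and 158388 CPM in bves KO-EX, against 113642, 199680 and 115961 CPM in WT. The 13 protein genes of the mitochondrial genome took 23.4%, 16.2% and 16.5% of the counts in bves KO-EX, against 14.5%, 13.6% and 16.2% in WT. Marker sums of liver, exocrine pancreas, intestine, lymphocytes and pigment cells stayed at or below 3.69 CPM in every library. Libraries bves KO-EX 1 and 3 were each other's nearest neighbour over the 1000 most variable genes (Euclidean distance 48.0), whereas the nearest neighbour of bves KO-EX 2 was bves KO 3 (59.4). The nearest neighbour of bves KO 2 was bves KO-EX 3 (52.4). From bves KO-EX 1 the distances to bves KO 1, 2 and 3 were 69.1, 59.8 and 74.5, and the shortest to WT was 67.6. From bves KO-EX 3 they were 61.4, 52.4 and 69.7, and the shortest to WT was 67.3. Library WT 2 stood apart from the other WT libraries in its scaling factor (0.763, against 1.13 and 1.05 in WT 1 and 3).

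In all, 366 genes were higher and 247 genes were lower in bves KO-EX than in WT among 14849 genes tested (edgeR adjusted p under 0.05 and a change beyond 2-fold). These calls took 4.13% of the tested genes, 2.46% upwards and 1.66% downwards. Counts of calls in the lists below are to be read against these shares. The median change was 1.53 on the log2 scale over the genes called higher and -1.48 over the genes called lower, against 0.01 over all tested genes. The 3 libraries of each group did not overlap in 366 of the 366 genes called higher and in 244 of the 247 called lower. Without an overlap, 15% of all tested genes lay higher and 13% lay lower in bves KO-EX, so that separation of the groups alone was common. Changes beyond 4-fold, which is 2 on the log2 scale, were found for 105 genes called higher and 60 called lower. Of the calls 59.7% were higher; with scaling by total counts, which moved the median of all genes by 0.11, the calls were 283 higher and 113 lower, a share of 71.5% higher. With 1 library left out at a time the calls were between 93 (without WT 1) and 365 (without WT 3) upwards, and between 57 (without bves KO-EX 3) and 562 (without WT 3) downwards. Of the 108 genes named by rule and called here, 57 lost the call without bves KO-EX 3, 52 without bves KO-EX 1, 50 without WT 1 and 45 without WT 2. The bves KO libraries entered only the shared filter, scaling and estimate of spread. Yet 29 of the 108 calls were lost without bves KO 1, 7 without bves KO 2 and 17 without bves KO 3. With the 6 compared libraries alone, 37 were lost. Where an adjusted p is given below with a single library left out, it is the highest over the 9 libraries, and leaving out other libraries may end the call as well.

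**Figure D1:**
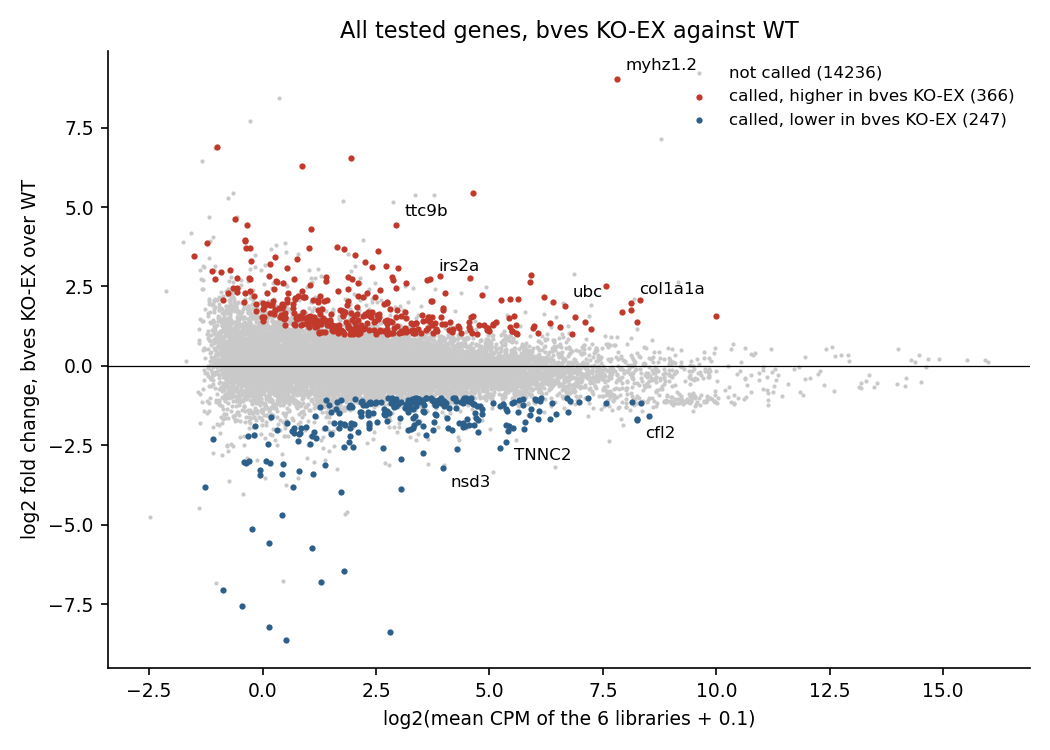
Log2 fold change of bves KO-EX over WT (y axis) against the log2 of the mean CPM of the 6 libraries plus 0.1 (x axis) for 14849 tested genes. Each point is a gene: 366 were called higher in bves KO-EX (red), 247 lower (blue) and 14236 were not called (grey).

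**Figure D2:**
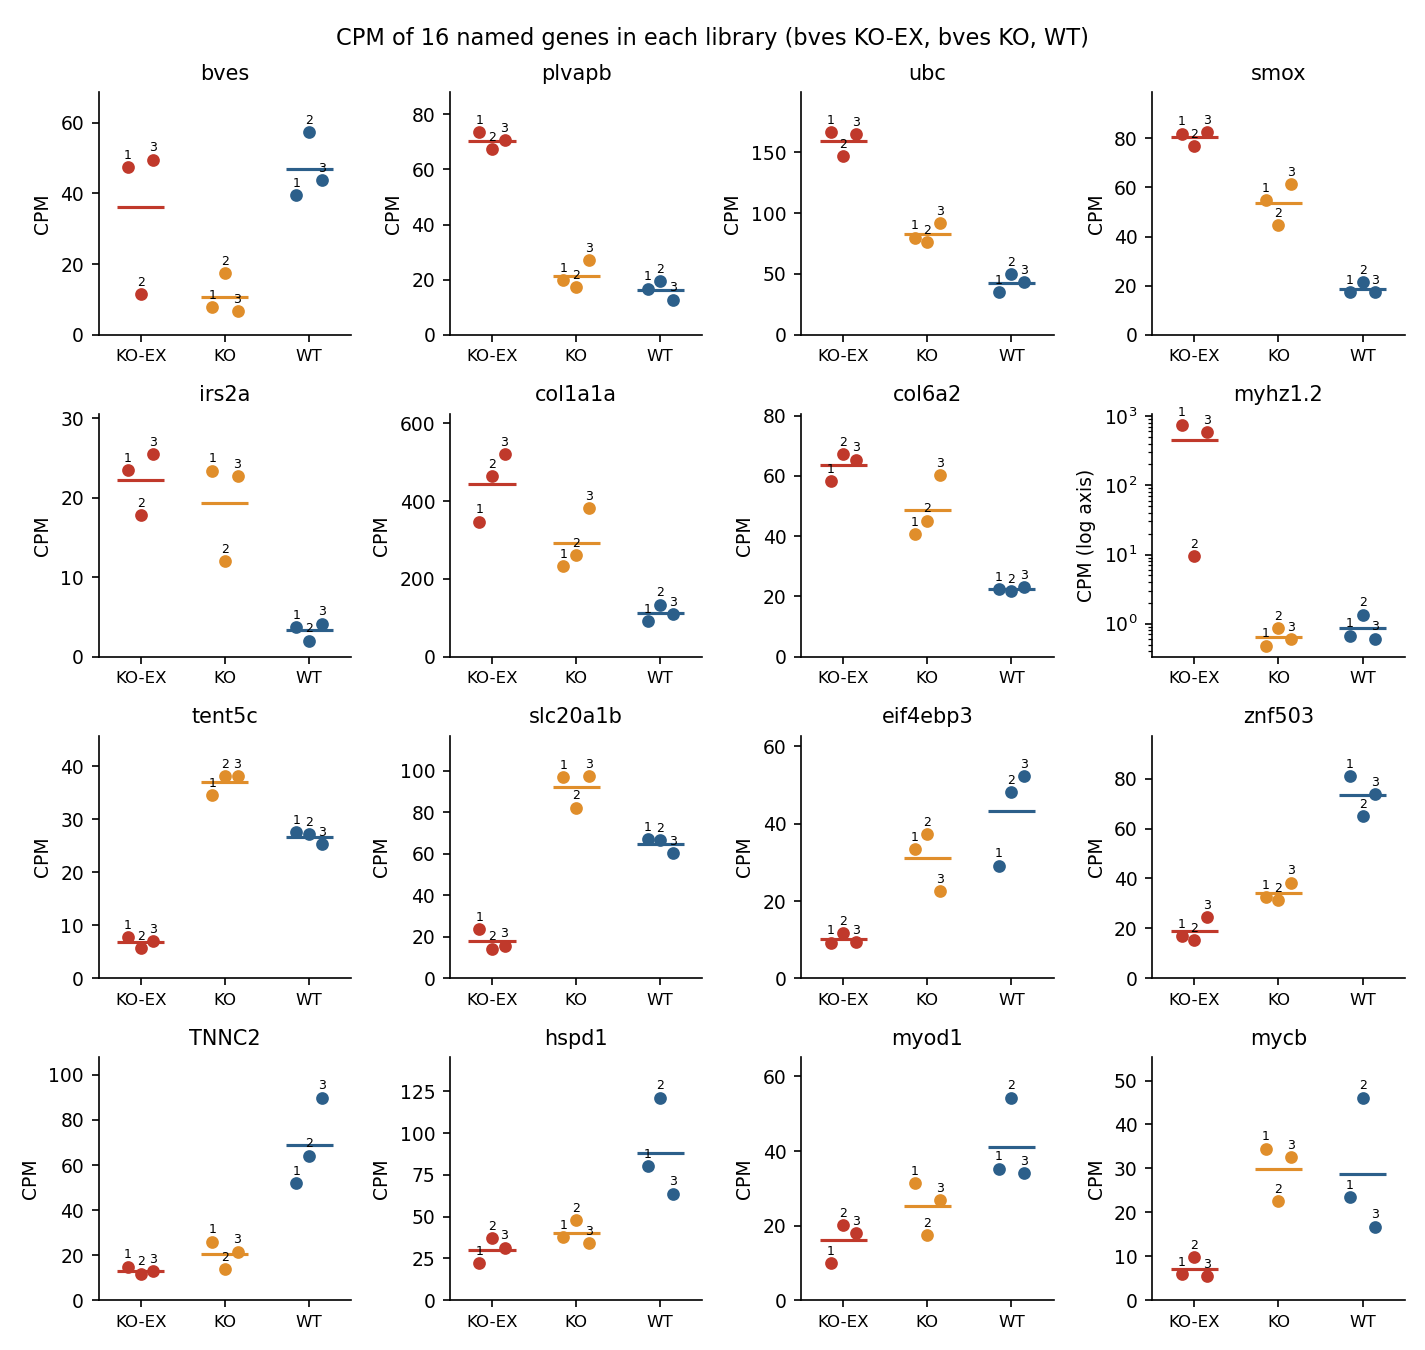
CPM of 16 named genes (y axes; log axis for myhz1.2) in the libraries labelled bves KO-EX, bves KO and WT, numbered by replicate, with a line at the mean of each group. For bves, libraries bves KO-EX 1 and 3 sit among the WT libraries at 47.4 and 49.6 CPM, whereas for plvapb, ubc and smox the 3 bves KO-EX libraries sit together above WT.

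Genes of protein breakdown were tested first, since loss of muscle in dystrophy involves them. The polyubiquitin genes, which encode chains of ubiquitin that tag proteins for the proteasome, were higher in bves KO-EX. The level of ubc was 166, 147 and 165 CPM in bves KO-EX, against 35.2, 50.01 and 43.4 CPM in WT, a change of 1.89 ± 0.21 on the log2 scale (SE, edgeR adjusted p = 0.00164). Libraries labelled bves KO lay between the groups at 79.9, 76.0 and 91.6 CPM, and the call of ubc held in all 18 other settings tried. A second gene, listed as UBB, reached 641, 487 and 425 CPM in bves KO-EX, against 146, 119 and 101 CPM in WT (2.08 ± 0.33, SE, adjusted p = 0.00937). The gene ubb reached 400, 354 and 222 CPM in bves KO-EX, against 67.5, 60.5 and 41.4 CPM in WT (2.53 ± 0.45, SE, adjusted p = 0.0169), although its adjusted p was 0.0569 without WT 2. These 3 genes repeat nearly the same unit, so reads may be shared among them.

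The muscle ubiquitin ligases moved less uniformly. Of 17 tested genes in the list of atrophy ligases and FoxO factors, 2 were called higher and none lower, with a median change of 0.24. The transcription factor gene foxo4 had 44.5, 44.5 and 41.4 CPM in bves KO-EX, against 27.3, 18.2 and 14.9 CPM in WT (1.11 ± 0.24, SE, adjusted p = 0.0285). The ligase gene fbxo40.2 had 61.7, 51.4 and 82.9 CPM in bves KO-EX, against 22.6, 40.14 and 34.9 CPM in WT (1.01 ± 0.25, SE, adjusted p = 0.0455). Both calls were fragile, with adjusted p = 0.0789 for foxo4 and 0.154 for fbxo40.2 without bves KO-EX 3. The gene of atrogin-1, fbxo32, was highest in bves KO-EX 1 (428 CPM, against 94.4 and 88.7 CPM in bves KO-EX 2 and 3, and 50.9, 14.3 and 17.2 CPM in WT) and did not pass the test (2.89 ± 0.80, SE, adjusted p = 0.0709). For trim63a, which encodes MuRF1, the groups overlapped, with 384, 138 and 190 CPM in bves KO-EX and 143, 20.8 and 23.1 CPM in WT (adjusted p = 0.386).

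The proteasome itself did not follow. Of 66 tested genes that the deposited annotation places in the KEGG pathway Proteasome, none was called higher and 1 was called lower, psmd11a, and the median was -0.24 with 52 of 66 below 0. Yet nfe2l1a, whose product is known in mammals to drive transcription of proteasome genes, had 33.7, 17.8 and 26.5 CPM in bves KO-EX, against 4.32, 3.92 and 2.73 CPM in WT (2.83 ± 0.37, SE, adjusted p = 0.00416). In the KEGG pathway Ubiquitin mediated proteolysis, 7 of 270 tested genes were higher and 4 lower. These shares, 2.59% and 1.48%, were close to the 2.46% and 1.66% of all tested genes. The 3 polyubiquitin genes above are among the 7.

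Collagens and other matrix genes were higher in bves KO-EX wherever they were called. Of 57 such genes in the files 54 were tested, 10 were called higher (18.5%, against 2.46% of all tested genes) and none lower. Their median change was 0.60, and it remained between 0.53 and 0.70 in every setting tried. Summed over the list, matrix transcripts reached 3284, 3772 and 3707 CPM in bves KO-EX, against 1772, 1921 and 1892 CPM in WT. Of the libraries labelled bves KO, with 2749, 2787 and 3661 CPM, replicates 1 and 2 lay between the groups and replicate 3 lay inside the bves KO-EX range. In 28 of the 54 genes every bves KO-EX library lay above every WT library, and in 3 every one lay below. Of all tested genes, 15% and 13% did so.

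The called members were chiefly fibrillar and filamentous collagens. The chain of type I collagen encoded by col1a1a had 347, 465 and 521 CPM in bves KO-EX, against 91.8, 134 and 109 CPM in WT (1.99 ± 0.28, SE, adjusted p = 0.00575). Its relatives col1a1b and col1a2 changed by 1.77 ± 0.29 and 1.70 ± 0.27 (SE, adjusted p = 0.0108 and 0.00979). Type VI collagen, which links the basement membrane of muscle fibres to the matrix and is mutated in human congenital myopathies, was higher in its 3 chains. Levels of col6a2 were 58.1, 67.2 and 65.4 CPM in bves KO-EX, against 22.3, 21.8 and 23.1 CPM in WT (1.505 ± 0.19, SE, adjusted p = 0.00381). The chains col6a1 and col6a3 changed by 1.35 ± 0.19 and 1.02 ± 0.22 (SE, adjusted p = 0.00622 and 0.0273). The remaining called members were col5a1 of type V collagen (1.03), the fibronectin gene fn1a (1.18), periostin gene postnb (1.16) and the collagen cross-linking enzyme gene loxl1 (1.12). The calcium-binding matrix protein gene sparc (0.95, adjusted p = 0.0374) and the gelatinase gene mmp2 (0.84, adjusted p = 0.0312) passed the p but not the fold.

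Not all matrix calls held with fewer libraries. Without bves KO-EX 3 or without WT 1, 5 members were called, and with bves KO-EX 1 and 3 both left out none was called while the median was 0.53. The genes col1a1a, col1a1b, col1a2, col6a1 and col6a2 were called whichever single library was left out. With single libraries left out the highest adjusted p was 0.0989 for fn1a (without bves KO-EX 3), and 0.123 for col5a1, 0.0879 for col6a3, 0.101 for postnb and 0.0791 for loxl1 (each without WT 1). Within the KEGG pathway ECM-receptor interaction 12 of 136 tested genes were higher and 2 lower (median 0.31), and within the GO term collagen-containing extracellular matrix 11 of 89 were higher and none lower (median 0.40); both share collagens with the list. Annexin genes whose products take part in repair of the fibre membrane were also higher, with 120, 142 and 134 CPM of anxa2a in bves KO-EX, against 41.6, 70.0 and 59.4 CPM in WT (1.21 ± 0.24, SE, adjusted p = 0.0232, but 0.0771 without bves KO-EX 3). The second, anxa5b, changed by 1.01 ± 0.19 (SE, adjusted p = 0.0185, and 0.0642 without bves KO-EX 3), and no other of 29 genes of the dystrophin complex and membrane repair was called.

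Markers of fibroblasts and tendon cells moved in part with the matrix list. Their sum over 9 genes was 999, 1469 and 1396 CPM in bves KO-EX, against 935, 892 and 768 CPM in WT. Of the 9 genes 3 were called higher, col1a1a and col1a2, which the matrix list also holds, and tnmd, which encodes the tendon protein tenomodulin (20.8, 30.9 and 30.8 CPM in bves KO-EX, against 11.5, 15.1 and 14.0 CPM in WT; 1.03 ± 0.21, SE, adjusted p = 0.0236, and 0.0878 without bves KO-EX 3). Markers that do not encode collagen chains were otherwise not called. The fibroblast receptor gene pdgfra changed by -0.44 (adjusted p = 0.179), the tendon factor gene scxa by -0.57 (0.119), lum by 0.08 (0.871) and dcn by 0.61 (0.161). More fibroblasts and more collagen transcript per cell cannot be told apart in bulk muscle, and the part of cell number in the matrix result was not tested.

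Genes of the ribosome lay on the other side. The KEGG pathway Ribosome held 148 tested genes, of which 139 had a change below 0, and the median was -0.98. Only 1 was called lower, rad23b, which encodes a shuttle protein of ubiquitylated cargo rather than a ribosomal protein, and the 3 called higher were the polyubiquitin genes. Hence no ribosomal protein gene passed the test singly. Yet 117 of the 148 genes had an unadjusted p under 0.05, and 109 lay lower in every bves KO-EX library than in any WT library. Over all 14849 tested genes, 3729 had an unadjusted p under 0.05, and 13% lay lower without an overlap. Summed over the pathway, the level was 35539, 43064 and 37880 CPM in bves KO-EX, against 60368, 126572 and 50359 CPM in WT. Of the bves KO libraries, with 51733, 58519 and 44516 CPM, replicates 1 and 2 lay inside the WT range and replicate 3 lay between the groups. Ribosomal protein gene rps6 had 550, 710 and 607 CPM in bves KO-EX, against 1040, 2244 and 836 CPM in WT (-1.14 ± 0.36, SE, adjusted p = 0.0862).

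The size of this difference turned on WT 2. Without WT 2 the median was -0.51 and no ribosome gene was called lower; without WT 3 it was -1.22 and 69 genes were called lower. DESeq2 called 69 genes lower with all 9 libraries. The sign of the median was the same in every setting tried, including scaling by total counts (-0.78) and leaving out bves KO-EX 1 and 3 (-0.90).

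**Figure D3:**
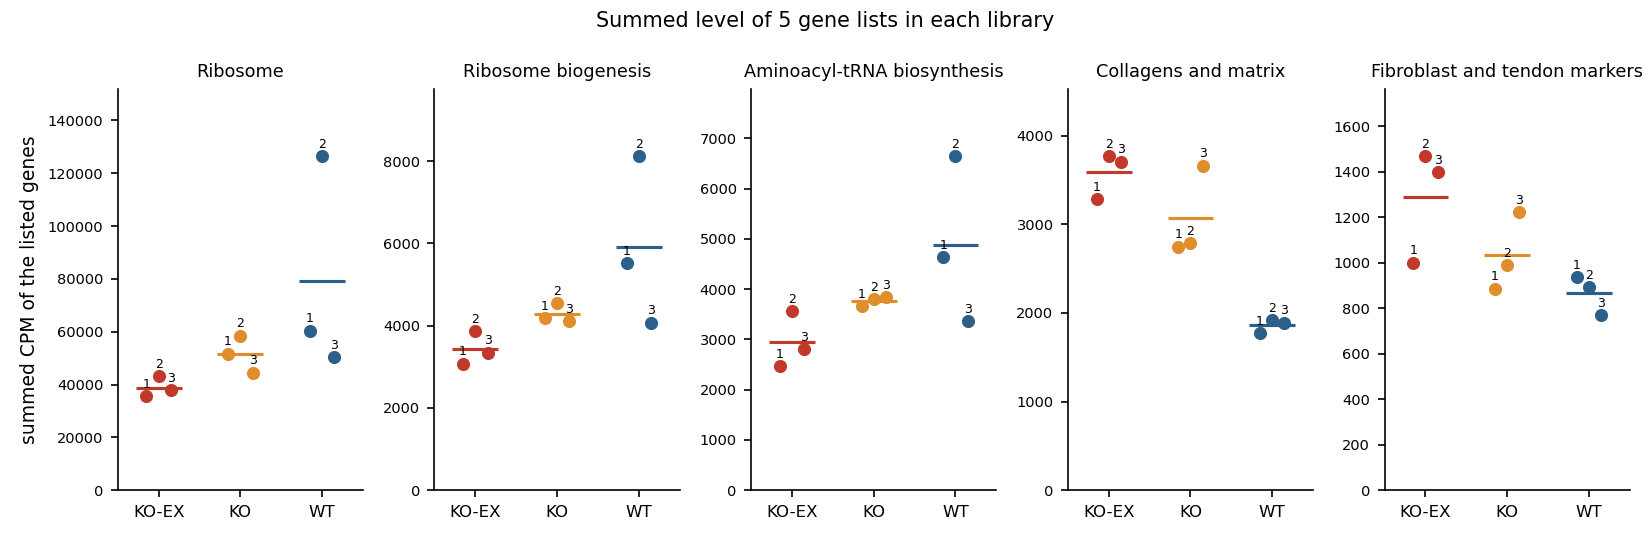
Summed CPM of 5 gene lists (y axes from 0) in the libraries labelled bves KO-EX, bves KO and WT, numbered by replicate, with a line at the mean of each group. The bves KO-EX libraries lie below WT for the ribosome (35539 to 43064 CPM, against 50359 to 126572 CPM) and above it for collagens and matrix (3284 to 3772 CPM, against 1772 to 1921 CPM); WT 2 is the highest library in the 3 panels on protein synthesis.

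Genes for building ribosomes and for other steps of protein synthesis followed the same direction, with some called. In the KEGG pathway Ribosome biogenesis in eukaryotes 5 of 115 tested genes were lower and none higher (median -0.45), and in the GO term rRNA processing 7 of 83 were lower and none higher (median -0.61). The shares called lower were 4.35% and 8.43%, against 1.66% of all tested genes. Both terms were added after values had been seen. The called genes include fbl and nop58, which encode core proteins of the box C/D complexes that methylate ribosomal RNA, and dkc1, which encodes the pseudouridine synthase dyskerin. The level of nop58 was 9.06, 12.9 and 8.05 CPM in bves KO-EX, against 38.0, 51.4 and 20.2 CPM in WT (-1.86 ± 0.32, SE, adjusted p = 0.0131). These counts turned on single libraries. In ribosome biogenesis 1 gene was called lower without WT 1 or without WT 2, none without bves KO-EX 1 or without bves KO-EX 3, and 26 without WT 3. In rRNA processing none was called without WT 1, WT 2, bves KO-EX 1 or bves KO-EX 3, nor with the 6 compared libraries alone, and 23 were called without WT 3; the median was -0.40 without WT 2 and -0.31 with bves KO-EX 1 and 3 both left out. Summed levels of the biogenesis pathway were 3074, 3859 and 3344 CPM in bves KO-EX, against 5514, 8127 and 4073 CPM in WT.

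Among translation factors, eif4a1a, which encodes an RNA helicase of initiation and was named after its values were seen, had 26.5, 23.0 and 15.8 CPM in bves KO-EX, against 86.0, 113 and 61.7 CPM in WT (-1.996 ± 0.28, SE, adjusted p = 0.00479). In bves KO libraries eif4a1a had 122, 128 and 103 CPM, above bves KO-EX in each. The initiation factor gene eif3c (146, 230 and 158 CPM in bves KO-EX, against 442, 462 and 260 CPM in WT) and the poly(A)-binding protein gene pabpc1b (111, 117 and 122 CPM in bves KO-EX, against 293, 303 and 187 CPM in WT) fell by 1.13 and 1.16 on the log2 scale. Their adjusted p were 0.0435 and 0.0258, and 0.145 and 0.0866 without bves KO-EX 3. Of the 56 tested genes of aminoacyl-tRNA biosynthesis 3 were lower and none higher (median -0.46), among them aars1 and gars1, which charge alanine and glycine tRNAs (-1.17 and -1.36; adjusted p = 0.113 and 0.142 without bves KO-EX 3). None of the 56 was called without WT 1, WT 2, bves KO-EX 1 or bves KO-EX 3, or with scaling by total counts, and 10 were lower without WT 3. For gars1 the groups overlapped, since WT 3 had 43.6 CPM and bves KO-EX 2 had 43.7 CPM.

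The Myc gene mycb and the polyamine enzyme gene odc1, both known in mammals as growth-related genes, were also lower. The level of mycb was 5.95, 9.80 and 5.49 CPM in bves KO-EX, against 23.4, 46.1 and 16.7 CPM in WT (-2.01 ± 0.38, SE, adjusted p = 0.0203, and 0.0771 without bves KO-EX 3). The bves KO libraries lay inside the WT range, with 34.5, 22.5 and 32.6 CPM. Ornithine decarboxylase, the first enzyme of polyamine synthesis, had odc1 levels of 2.78, 5.53 and 2.50 CPM in bves KO-EX, against 14.9, 19.7 and 9.47 CPM in WT (-2.01 ± 0.37, SE, adjusted p = 0.0188, and 0.0716 without bves KO-EX 3). By contrast smox, which encodes a polyamine-degrading oxidase, changed by 2.104 ± 0.19 (SE), a call that held in all 18 settings. No other gene among 18 of polyamine metabolism was called.

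Signalling genes upstream of protein synthesis gave a few strong calls rather than a shift of the lists. Of 39 tested genes of insulin and IGF signalling 2 were higher (5.13%) and 1 lower (2.56%), with a median of 0.04. Of 22 mTOR complex genes and regulators 1 was higher and 1 lower (4.5% each), with a median of -0.23. Over all tested genes 2.46% were higher and 1.66% lower, so these counts are not read as a result about the lists. The insulin receptor substrate gene irs2a had 23.5, 17.8 and 25.5 CPM in bves KO-EX, against 3.74, 2.03 and 4.15 CPM in WT (2.73 ± 0.32, SE, adjusted p = 0.00247). Levels of irs2a in bves KO overlapped those in bves KO-EX, at 23.4, 12.1 and 22.7 CPM, and its change between bves KO-EX and bves KO was 0.20 (adjusted p = 0.829). The gene eif4ebp3, whose product binds the cap-binding factor eIF4E and represses translation, had 9.23, 11.7 and 9.35 CPM in bves KO-EX, against 29.1, 48.2 and 52.3 CPM in WT (-2.09 ± 0.27, SE, adjusted p = 0.00381). The calls of irs2a and eif4ebp3 held whichever single library was left out.

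The other signalling calls were less firm. The growth factor gene igf2a had 5.89, 4.17 and 5.16 CPM in bves KO-EX, against 1.34, 2.49 and 0.861 CPM in WT (1.73 ± 0.41, SE, adjusted p = 0.0366, and 0.115 without WT 1). The PI3-kinase regulatory subunit gene pik3r1 had 98.2, 83.4 and 102 CPM in bves KO-EX, against 156, 223 and 198 CPM in WT (-1.02 ± 0.22, SE, adjusted p = 0.0264, and 0.0853 without bves KO-EX 3). The mTOR complex 2 subunit gene rictorb changed by 1.12 ± 0.28 (SE, adjusted p = 0.0412, and 0.126 without bves KO-EX 3). Just under the fold threshold lay the S6 kinase gene rps6kb1b (-0.99, adjusted p = 0.0264), the IGF receptor gene igf1rb (-0.97, 0.0285) and the mTOR inhibitor gene deptor (0.98, 0.0291). The stress protein gene sesn1, whose product is known in mammals to restrain mTOR complex 1, had 425, 288 and 609 CPM in bves KO-EX, against 196, 115 and 191 CPM in WT (1.40 ± 0.32, SE, adjusted p = 0.0326, and 0.116 without bves KO-EX 3).

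Molecular chaperones, which fold new and damaged proteins, were lower where they were called. Of 47 tested genes 7 were lower and none higher, the median was -0.49, and 38 of 47 were below 0. Of all 14849 tested genes 1.66% were called lower and 7360 had a change below 0. The heat-inducible hsp70.2 had 3.61, 7.69 and 4.78 CPM in bves KO-EX, against 15.4, 47.2 and 37.6 CPM in WT (-2.63 ± 0.41, SE, adjusted p = 0.0105). In bves KO it reached 53.3, 42.5 and 58.1 CPM, and the change between bves KO-EX and bves KO was -3.25 (adjusted p = 0.00872). Its near-identical neighbours hsp70.1 and hsp70.3 changed by -2.94 and -2.74, and reads may be shared among the 3. The mitochondrial chaperonin genes hspd1 and hspe1, which encode Hsp60 and its co-chaperonin, changed by -1.54 ± 0.28 and -1.17 ± 0.25 (SE, adjusted p = 0.0169 and 0.0264).

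For hspd1 the levels were 22.2, 37.0 and 31.5 CPM in bves KO-EX, against 80.0, 121 and 63.7 CPM in WT. The Hsp40 gene dnaja2b had 29.0, 21.6 and 36.5 CPM in bves KO-EX, against 64.8, 61.7 and 64.8 CPM in WT (-1.13 ± 0.22, SE, adjusted p = 0.0217), and the small heat shock gene hspb3 changed by -1.29. Without bves KO-EX 1 only 1 chaperone gene was called, without bves KO-EX 3 only 2, and none with both left out. The highest adjusted p with a single library left out was 0.0996 for hsp70.1, 0.113 for hsp70.3, 0.0646 for hspd1, 0.0997 for hspe1 and 0.0893 for hspb3 (each without bves KO-EX 3) and 0.0673 for dnaja2b (without bves KO-EX 1). Only hsp70.2 was called whichever single library was left out. The abundant constitutive hspa8 lay lower without passing the test (-0.79, adjusted p = 0.0907).

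Fibre genes gave large changes in a few members. The fast myosin heavy chain gene myhz1.2 was read at 749, 9.42 and 592 CPM in bves KO-EX, 0.483, 0.865 and 0.599 CPM in bves KO, and 0.671, 1.36 and 0.608 CPM in WT (9.04 ± 1.55 for bves KO-EX over WT, SE, adjusted p = 0.0224). Libraries bves KO-EX 1 and 3, whose bves level was that of WT, carried nearly all of it. Library bves KO-EX 2 was still above every WT and bves KO library. Its neighbour myhz1.1 behaved alike at a low level, with 5.17, 0.563 and 3.04 CPM in bves KO-EX, against 0.144, 0.226 and 0.456 CPM in WT (3.36 ± 0.75, SE, adjusted p = 0.0327). For myhz1.3 the groups overlapped (53.2, 0.0938 and 48.8 CPM in bves KO-EX, against 12.1, 8.51 and 0.203 CPM in WT; adjusted p = 0.384). These myosin genes are near-identical tandem copies and the split of reads among them is uncertain. Without WT 1 the adjusted p was 0.0838 for myhz1.2 and 0.111 for myhz1.1.

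Several troponin genes were lower. A troponin C gene listed as TNNC2, which is not the abundant tnnc2, had 14.9, 11.8 and 12.8 CPM in bves KO-EX, against 52.0, 64.2 and 89.9 CPM in WT (-2.38 ± 0.28, SE, adjusted p = 0.00231), and its call held whichever single library was left out. The abundant tnnc2 overlapped between the groups, with 3615, 3538 and 5489 CPM in bves KO-EX, and 3817, 10948 and 4248 CPM in WT (adjusted p = 0.389). Troponin I genes tnni2a.2 of fast type and tnni1d of slow type changed by -1.79 ± 0.39 and -1.69 ± 0.32 (SE, adjusted p = 0.0291 and 0.0194). Their highest adjusted p with a single library left out was 0.0835 (without WT 1) and 0.0771 (without bves KO-EX 3). Over the lists, 2 of 37 fast fibre genes were higher and 2 lower (median -0.44), and of 20 slow fibre genes none was higher and 1 was lower (median -0.50). The fast median was -0.09 without WT 2.

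Of 23 tested genes of the myogenic list, 2 were called lower and 1 higher, and the median was -0.48. The master myogenic factor gene myod1 had 10.01, 20.2 and 17.9 CPM in bves KO-EX, against 35.3, 54.3 and 34.0 CPM in WT (-1.36 ± 0.31, SE, adjusted p = 0.0342). Its relative myf6 had 4.56, 3.19 and 3.59 CPM in bves KO-EX, against 8.25, 8.13 and 8.41 CPM in WT (-1.13 ± 0.21, SE, adjusted p = 0.0169). The gene called higher was fstl3, which encodes a follistatin-like inhibitor of activin and myostatin (1.18 ± 0.28, SE, adjusted p = 0.0396). Outside this list, klhl41b and cfl2 were also lower. The sarcomere protein gene klhl41b, mutated in human nemaline myopathy, had 159, 246 and 189 CPM in bves KO-EX, against 504, 566 and 282 CPM in WT (-1.18 ± 0.30, SE, adjusted p = 0.0469). The actin-severing gene cfl2 had 90.8, 205 and 136 CPM in bves KO-EX, against 566, 575 and 246 CPM in WT (-1.69 ± 0.40, SE, adjusted p = 0.0364). These calls were not firm, and the highest adjusted p with a single library left out was 0.0973 for myod1 (without WT 2), 0.0692 for myf6, 0.142 for klhl41b and 0.117 for cfl2 (each without bves KO-EX 3), and 0.123 for fstl3 (without WT 1).

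In the 4 mitochondrial lists of this paragraph most genes did not pass the test. The few calls in these lists were downwards, and none was among the 13 protein genes of the mitochondrial genome. Outside the lists, a gene listed by a sequence accession of the mitochondrial genome was called higher. Its change was between 1.08 and 1.81 with single libraries left out, and 5 of the 9 libraries ended the call when left out. In the GO term mitochondrial inner membrane the median was -0.23. There 7 of 194 tested genes were lower (3.61%, against 1.66% of all tested genes) and none higher. They were hspd1, described above, the carrier genes slc25a26 (-1.18) and slc25a25b, taz (-1.29) and mpv17l2 (-1.97). The others were timm9, which encodes a chaperone of protein import (-1.15), and agk, which encodes acylglycerol kinase (-1.26). No fold change is given for slc25a25b, which had at most 3 counts in every bves KO-EX library. None of the 194 was called lower without bves KO-EX 3, 2 without bves KO-EX 1 and 3 without WT 1. The 13 protein genes of the mitochondrial genome had a median change of 0.34, with 13 of 13 above 0 and none called by edgeR or DESeq2. Their summed levels overlapped between the groups, with 236179, 138484 and 163651 CPM in bves KO-EX, against 128773, 177864 and 155001 CPM in WT. Of 147 tested genes of oxidative phosphorylation in the KEGG pathway, none was higher and 1 was lower, cox6b1 of cytochrome oxidase (10.95, 16.7 and 4.35 CPM in bves KO-EX, against 55.7, 85.5 and 53.1 CPM in WT; -2.60 ± 0.61, SE, adjusted p = 0.0441, and 0.123 without WT 2). The gene tfb1m, which encodes a methyltransferase of mitochondrial ribosomal RNA, was the 1 call among 22 regulators of mitochondrial biogenesis (-1.58 ± 0.35, SE, adjusted p = 0.0303, and 0.0997 without bves KO-EX 3). The coactivator gene ppargc1a overlapped between the groups, with 23.3, 13.9 and 21.0 CPM in bves KO-EX and 27.0, 9.56 and 50.5 CPM in WT (adjusted p = 0.522). A related coactivator gene, pprc1, lay at 1.56, 4.74 and 1.41 CPM in bves KO-EX, against 29.7, 31.6 and 5.52 CPM in WT, and did not pass the test (-3.09 ± 0.76, SE, adjusted p = 0.0537).

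Among genes of vessels and blood, plvapb stood out. It encodes a protein of the diaphragms of endothelial caveolae and fenestrae, and had 73.4, 67.4 and 70.5 CPM in bves KO-EX, against 16.8, 19.4 and 12.8 CPM in WT (2.11 ± 0.23, SE, adjusted p = 0.0014). The bves KO libraries overlapped WT with 19.8, 17.2 and 27.2 CPM, and plvapb was also higher in bves KO-EX than in bves KO (1.72, adjusted p = 0.00748). No other of 9 endothelial markers was called, and their sum was 484, 333 and 400 CPM in bves KO-EX, against 353, 276 and 353 CPM in WT. The hypoxia factor gene epas1a had 56.2, 26.2 and 45.6 CPM in bves KO-EX, against 17.4, 18.0 and 20.8 CPM in WT (1.19 ± 0.30, SE, adjusted p = 0.0452, and 0.128 without bves KO-EX 1), the 1 call among 36 genes of hypoxia and angiogenesis. That is 2.78% of the list, close to the 2.46% called higher over all tested genes, and the median of the list was 0.04. In the GO term response to hypoxia 3 of 46 tested genes were higher (6.52%) and none lower, with a median of -0.05. They were irs2a, hmox1a and the neuropilin gene nrp1a, which encodes a co-receptor of VEGF (1.04 ± 0.21, SE, adjusted p = 0.0239), and 1 was called without WT 1 or without bves KO-EX 1. In the GO term angiogenesis nrp1a was higher and 3 of 127 genes were lower, pknox1.2, wdr43 and mt2, with a median of 0.03. The shares were 0.79% higher and 2.36% lower, against 2.46% and 1.66% of all tested genes. None of the 127 was called in either direction without bves KO-EX 3.

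The anion exchanger gene slc4a1a of red blood cells had 22.6, 9.94 and 23.5 CPM in bves KO-EX, against 6.28, 7.08 and 5.82 CPM in WT (1.55 ± 0.30, SE, adjusted p = 0.0216, and 0.0782 without bves KO-EX 3). Blood markers summed to 909, 514 and 796 CPM in bves KO-EX, against 371, 708 and 348 CPM in WT, so the sums overlapped. The macrophage scavenger receptor gene marco had 17.0, 23.7 and 18.8 CPM in bves KO-EX, against 9.73, 8.59 and 5.22 CPM in WT (1.34 ± 0.24, SE, adjusted p = 0.0163, and 0.0511 without bves KO-EX 3). Macrophage markers summed to 218, 331 and 155 CPM in bves KO-EX, against 154, 277 and 166 CPM in WT. The collagen gene col10a1a, taken as a marker of scale and bone, changed by 2.16 ± 0.39 (SE, adjusted p = 0.0162, and 0.0593 without WT 1). Markers of the epidermis were not called, yet their sum was 536, 329 and 172 CPM in bves KO-EX, against 260, 141 and 154 CPM in WT. The part of other cells in these results was not tested.

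A few genes of redox and heme metabolism were called, some higher and some lower. Heme oxygenase gene hmox1a had 6.67, 6.85 and 3.59 CPM in bves KO-EX, against 1.39, 2.26 and 0.608 CPM in WT (2.04 ± 0.42, SE, adjusted p = 0.024, and 0.0815 without WT 1). The lipid peroxide reductase gene gpx4a had 20.8, 11.5 and 14.5 CPM in bves KO-EX, against 32.9, 37.3 and 41.2 CPM in WT (-1.25 ± 0.23, SE, adjusted p = 0.0174). The metallothionein gene mt2 changed by -1.58 ± 0.27 (SE, adjusted p = 0.0135). For hmox1a, gpx4a and mt2 the bves KO libraries overlapped bves KO-EX and not WT, with means of 5.65, 12.9 and 1.84 CPM. With nfe2l1a these made 2 genes higher and 2 lower among 34 antioxidant and heme genes, and the median was -0.07. Each count is 5.88% of the list, against 2.46% higher and 1.66% lower over all tested genes. Without bves KO-EX 3 the adjusted p was 0.0731 for gpx4a and 0.0629 for mt2.

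Cytochrome P450 genes were 5 of the 8 calls in the GO term heme binding, in which 7 of 78 tested genes were higher and 1 lower (median 0.18). Without WT 1 or without bves KO-EX 1, 4 were called higher, and with bves KO-EX 1 and 3 both left out 3 were, with a median of -0.09. Levels of cyp2p6 were 24.0, 23.9 and 24.2 CPM in bves KO-EX, against 5.85, 6.63 and 8.76 CPM in WT (1.76 ± 0.19, SE, adjusted p = 0.00133). The bves KO libraries had 9.71, 10.3 and 9.42 CPM, and cyp2p6 was higher in bves KO-EX than in bves KO (1.29, adjusted p = 0.0097). The other members called higher were cyp2p10 (3.10), cyp2ad3 (1.37), cyp24a1, which encodes the enzyme that inactivates vitamin D (1.25), hmox1a, soul4 and fam149a. The member called lower was cyp2r1, which encodes a vitamin D 25-hydroxylase (-3.41).

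Clock genes and inducible factors were tested as groups that follow the time of day and recent activity. Of 10 clock activator genes 1 was called higher and none lower, with a median of 0.68, and 9 of 10 lay above 0. Their summed level was 86.2, 91.7 and 94.9 CPM in bves KO-EX, against 52.4, 58.1 and 57.4 CPM in WT. The called gene was rorcb, which encodes a nuclear receptor of the ROR family (11.2, 13.8 and 7.23 CPM in bves KO-EX, against 2.45, 4.22 and 2.78 CPM in WT; 1.78 ± 0.42, SE, adjusted p = 0.0374, and 0.121 without WT 1). Of 21 clock repressor genes cry1b was higher (1.07) and ciartb lower (-1.15), with adjusted p = 0.0291 and 0.0316, and 0.0972 without bves KO-EX 3 and 0.0888 without WT 1. The repressor gene bhlhe40 lay at the fold threshold, with 46.5, 41.2 and 66.7 CPM in bves KO-EX, against 26.6, 26.5 and 24.2 CPM in WT (1.00, adjusted p = 0.0228), and was not called. The time of day at sampling is not given in the sources used here.

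Output factor gene nfil3-5 had 42.6, 98.4 and 43.9 CPM in bves KO-EX, against 15.2, 17.0 and 11.6 CPM in WT (2.08 ± 0.39, SE, adjusted p = 0.0202, and 0.0692 without WT 1). Among 38 immediate early factors 2 were higher and 2 lower. The Krüppel-like factor gene klf11a had 12.2, 12.99 and 10.7 CPM in bves KO-EX, against 4.03, 3.92 and 2.58 CPM in WT (1.77 ± 0.24, SE, adjusted p = 0.00416), a call that held whichever single library was left out. The remaining calls were mafbb (1.43), cebpa (-1.24) and mycb, described above, and each of them was lost without bves KO-EX 3, with adjusted p = 0.126 for cebpa. The highest adjusted p of mafbb was 0.0809 without WT 1.

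Stress and cyclic AMP genes gave a few calls in both directions. In the list of the integrated stress response 3 of 37 tested genes were higher (nupr1b, sesn1 and slc3a2a) and 2 lower (aars1 and gars1). The shares were 8.11% and 5.41%, against 2.46% and 1.66% of all tested genes, and the median was -0.03. The stress-induced nuclear protein gene nupr1b had 9.23, 4.22 and 4.73 CPM in bves KO-EX, against 1.25, 0.979 and 1.11 CPM in WT (2.43 ± 0.46, SE, adjusted p = 0.0201, and 0.0671 without WT 1). The amino acid transporter subunit gene slc3a2a changed by 1.12 ± 0.21 (SE, adjusted p = 0.0201, and 0.0657 without bves KO-EX 3). The cyclic AMP list had 2.70% of its tested genes called in each direction, against 2.46% higher and 1.66% lower over all tested genes. Its median was -0.20, and these counts are not read as a result about the list. Of 37 cyclic AMP signalling genes 1 was higher, rapgef3, which encodes the cAMP-activated exchange factor Epac1 (23.2, 16.5 and 18.8 CPM in bves KO-EX, against 8.73, 6.18 and 11.3 CPM in WT; 1.15 ± 0.26, SE, adjusted p = 0.0312, and 0.0947 without WT 1). The 1 lower was adrb2b, which encodes a beta-2 adrenergic receptor (8.51, 4.74 and 7.61 CPM in bves KO-EX, against 12.5, 18.2 and 18.0 CPM in WT; -1.23 ± 0.24, SE, adjusted p = 0.0216, and 0.0667 without bves KO-EX 3). Of the 29 genes of apoptosis and p53 the pro-apoptotic bada was called higher, with 6.84, 6.89 and 6.09 CPM in bves KO-EX, against 0.863, 1.73 and 0.506 CPM in WT (2.72 ± 0.37, SE, adjusted p = 0.00479). It was the only call in that list (3.45%, against 2.46% higher over all tested genes). The median of the list was -0.15, with 19 of 29 genes below 0, so the call is not read as a result about the list.

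The genes enpep, ttc9b and cdkn1d were among those with the smallest adjusted p. The aminopeptidase gene enpep had 18.7, 13.8 and 13.4 CPM in bves KO-EX, against 2.06, 2.71 and 2.78 CPM in WT (2.60 ± 0.25, SE, adjusted p = 0.000756). The gene ttc9b, which encodes a tetratricopeptide repeat protein, had 7.45, 23.5 and 12.6 CPM in bves KO-EX, against 0.815, 0.527 and 0.608 CPM in WT (4.44 ± 0.42, SE, adjusted p = 0.000756). The cell cycle inhibitor gene cdkn1d had 28.1, 23.8 and 28.9 CPM in bves KO-EX, against 5.71, 3.77 and 6.99 CPM in WT (2.28 ± 0.23, SE, adjusted p = 0.000805). These 3 calls held in every other setting in which the genes were tested. In the bves KO libraries the 3 genes were also above WT, with means of 7.85, 10.3 and 15.0 CPM. The splicing regulator gene srrm4 changed by 3.68 ± 0.41 (SE, adjusted p = 0.00165), with WT at 0.405 to 0.527 CPM, and lmbr1l, which encodes a membrane receptor-like protein, by 2.44 ± 0.29 (SE, adjusted p = 0.00231).

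Clotting factor XIII genes were among the largest differences but varied within the groups. The gene listed as F13A1 had 25.3, 55.8 and 64.6 CPM in bves KO-EX, against 2.49, 0.151 and 0.506 CPM in WT (5.43 ± 1.19, SE, adjusted p = 0.0417, and 0.109 without WT 2). Its close relative f13a1a.1, named after its values were seen, had 753, 1133 and 743 CPM in bves KO-EX, against 17.6, 0.678 and 0 CPM in WT, and did not pass the test (adjusted p = 0.0647). In bves KO the level of f13a1a.1 was 49.1, 673 and 419 CPM. Reads may be shared between the pair. The kinase-family gene pimr51, one of many similar copies, had 103, 75.4 and 138 CPM in bves KO-EX, against 8.15, 14.1 and 21.6 CPM in WT (2.85 ± 0.36, SE, adjusted p = 0.00367), and was higher still in bves KO at 206, 182 and 241 CPM.

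Among other genes that were lower, the phosphate transporter gene slc20a1b had 23.6, 14.3 and 15.8 CPM in bves KO-EX, against 67.0, 66.4 and 60.2 CPM in WT (-1.85 ± 0.22, SE, adjusted p = 0.00263). In bves KO it had 97.0, 82.2 and 97.4 CPM, and the change between bves KO-EX and bves KO was -2.36 (adjusted p = 0.00226). The lipogenesis regulator gene mid1ip1l was likewise lowest in bves KO-EX, with 29.5, 27.7 and 38.8 CPM in bves KO-EX, 131, 109 and 114 CPM in bves KO, and 81.0, 110 and 113 CPM in WT (-1.66 ± 0.22 for bves KO-EX over WT, SE, adjusted p = 0.00416). The zinc finger factor genes znf503 and zbtb16b instead had their bves KO libraries between bves KO-EX and WT. The level of znf503 was 17.0, 15.2 and 24.5 CPM in bves KO-EX, 32.6, 31.2 and 38.3 CPM in bves KO, and 81.0, 64.9 and 73.8 CPM in WT (-1.96 ± 0.22, SE, adjusted p = 0.0018). For zbtb16b, which encodes a PLZF factor, it was 25.5, 22.5 and 27.8 CPM in bves KO-EX, 50.1, 63.8 and 44.7 CPM in bves KO, and 102, 70.34 and 83.8 CPM in WT (-1.76 ± 0.22, SE, adjusted p = 0.00295).

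The histone methyltransferase gene nsd3 had 2.89, 1.45 and 4.68 CPM in bves KO-EX, against 26.6, 28.1 and 29.5 CPM in WT (-3.23 ± 0.54, SE, adjusted p = 0.0163, and 0.0618 without bves KO-EX 1). The cell adhesion gene kirrel3a changed by -2.40 ± 0.31 and pde12, which encodes a mitochondrial deadenylase, by -2.18 ± 0.34 (SE, adjusted p = 0.00381 and 0.00936). The abundant importin gene kpnb3 (155, 241 and 152 CPM in bves KO-EX, against 813, 556 and 281 CPM in WT), autophagy receptor gene calcoco2 and GMP reductase gene gmpr were called at -1.59, -1.70 and -1.15. Their adjusted p lay close to the threshold (0.0462, 0.0493 and 0.0486), and the calls were lost in 11, 13 and 12 of the 18 settings.

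Some calls set counts against almost none. In 14 of the genes called higher every WT library, and in 14 of the genes called lower every bves KO-EX library, had at most 3 counts. The glycine receptor gene glra2 had 0, 0 and 2 counts in bves KO-EX and 0 in each bves KO library, against 129, 56 and 70 counts in WT. The unnamed gene BX119915.3 had 60, 57 and 79 counts in bves KO-EX and 74, 41 and 60 counts in bves KO, against 2, 0 and 0 counts in WT. No fold change is given for them. All bves KO libraries, too, were at or under this limit for 8 of the 14 genes called lower in this way, and for none of the 14 called higher.

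**Figure D4:**
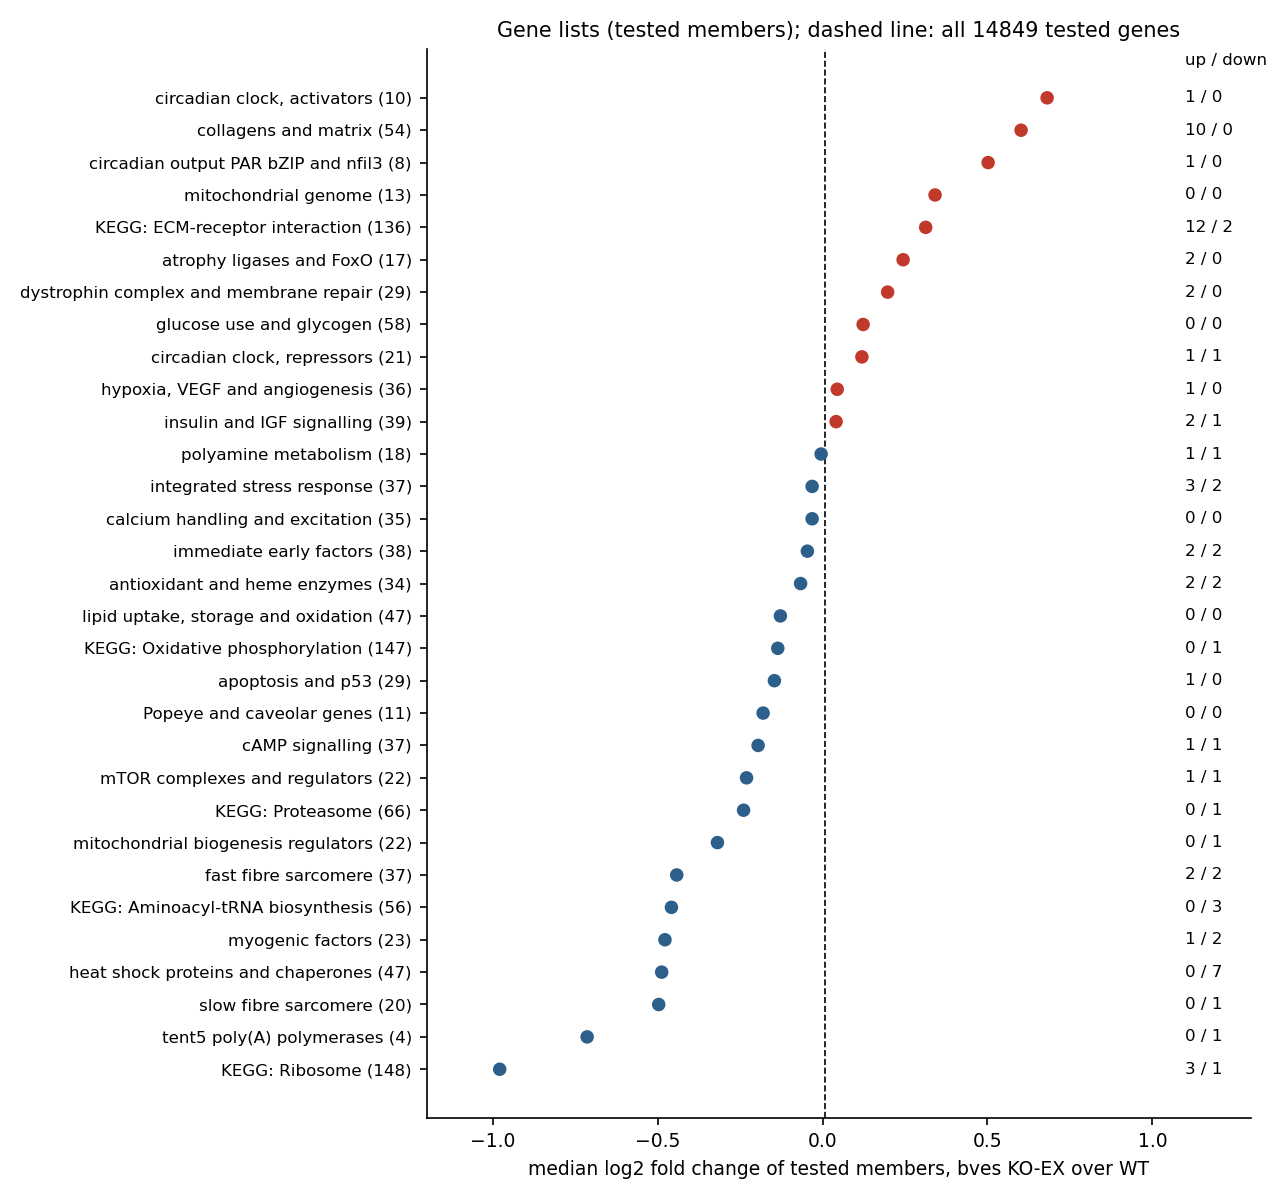
Median log2 fold change of bves KO-EX over WT (x axis) for the tested members of 31 gene lists (rows, number of tested genes in brackets), with the number called higher and lower at the right and a dashed line at the median of all 14849 tested genes. Clock activators (0.68) and collagens and matrix (0.60) lie at the top, and the ribosome (-0.98) at the bottom.

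Other lists held no call in either direction in the edgeR test. They were 35 genes of calcium handling and excitation (median -0.03; 7 had an unadjusted p under 0.05), 47 of lipid uptake, storage and oxidation (-0.13; 6), 58 of glucose use and glycogen (0.12; 12), the 11 Popeye and caveolar genes (-0.18; 0) and the 13 of the mitochondrial genome (0.34; 0). An unadjusted p under 0.05 was common, with 3729 of all 14849 tested genes, so these counts are not read as a result about the lists. Among the Popeye genes popdc3, a family member, had 7.56, 3.24 and 9.62 CPM in bves KO-EX, against 8.92, 13.9 and 13.9 CPM in WT (-0.85, adjusted p = 0.234). Caveolin-3 of muscle, cav3, had 44.2, 52.9 and 69.7 CPM in bves KO-EX, against 54.5, 92.3 and 78.8 CPM in WT (-0.44, adjusted p = 0.307), so that the groups overlapped in both. DESeq2 called 1 gene of calcium handling higher, 1 of lipid metabolism higher, and 4 of glucose use higher and 1 lower, and none in the other lists of this paragraph. The fibre membrane gene dmd of dystrophin lay slightly lower in every bves KO-EX library and was not called (-0.54, adjusted p = 0.159).

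With bves KO-EX 1 and 3 left out, a single library stood for its group and was assumed to vary like the other groups. Then 35 genes were higher and 17 lower, of which 32 and 11 were among the 366 and 247. Of the 108 named genes called with all libraries, 23 remained called. They included plvapb, ubc, smox, enpep, ttc9b, cdkn1d, cyp2p6, slc20a1b, znf503, tent5c and myhz1.2. For myhz1.2 the change was then 3.44, against 9.04 with all libraries, and for bves it was -2.05, against -0.37.

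**Figure D5:**
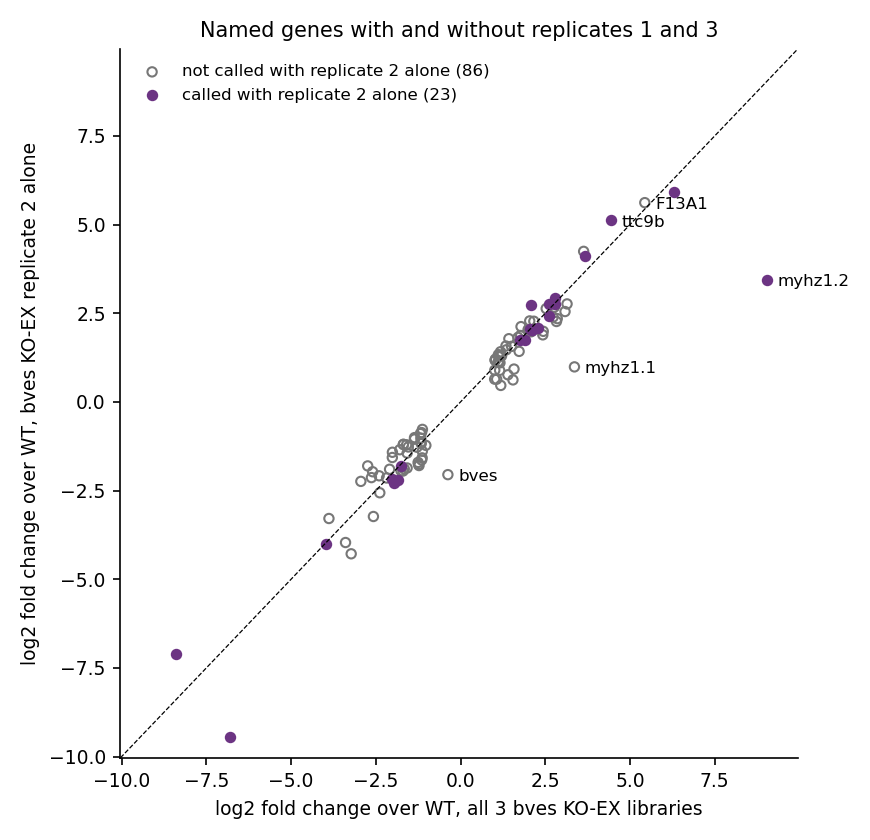
Log2 fold change over WT with bves KO-EX replicate 2 alone (y axis) against that with all 3 bves KO-EX libraries (x axis) for 109 named genes, with the dashed line of equal values. Filled points were called with replicate 2 alone and open points were not. Among the points labelled with a symbol, myhz1.2, myhz1.1 and bves lie farthest from the line.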

How the data were processed

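Poly(A) RNA of skeletal muscle was sequenced in 9 libraries, 3 each of bves KO-EX, bves KO and WT. Per the submitters' processing notes, fastp, HISAT2, StringTie and RSEM were used, and the genome build is not given in the sources used here. The authors deposited gene tables of expected counts and of TPM values, with GO and KEGG annotations. Further deposited columns hold the fold changes and p-values of the authors' own comparisons, and these were not used. TPM values, as the authors deposited them, served only to check the tables.

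Expected counts were rounded to whole numbers, filtered with filterByExpr by group, scaled by TMM and tested with edgeR 4.0.16 (R 4.3.3) by the quasi-likelihood test over all 9 libraries, with Benjamini-Hochberg adjustment over 14849 genes. Every adjusted p without another name is from this fit; SE is the absolute log2 fold change divided by the square root of F. A gene was called at an adjusted p under 0.05 and a log2 fold change beyond 1. CPM are counts scaled to libraries of 1000000 after TMM. The test was also tried on simulated data. Alternatives were DESeq2 1.42.0, other scalings and filters, the 6 compared libraries alone, a replicate block and left-out libraries.

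Named genes are bves, the 15 smallest adjusted p, the 10 largest changes and the 8 most abundant calls in each direction, and called members of the lists. The smallest adjusted p and the largest changes were taken among calls with a symbol whose groups did not overlap. The largest changes also needed a mean of at least 10 CPM in the higher group. Among the named genes, 1 listed by a sequence accession is given only with the mitochondrial lists. Several unnamed genes and snai3 (called lower) are not described. The gene tent5c is listed above without its levels. It was called lower whichever single library was left out, with changes between -2.05 and -1.85. Lists and members were chosen with earlier results of these data known. The study counts each tube of 2 pooled muscle samples as a biological replicate. Sources do not say whether libraries of a group were prepared separately beyond that. The p-values therefore rest on the spread between these libraries, estimated over all 9 with information shared across genes. Symbols are as deposited.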

Additional observations from a re-analysis of the deposited data

How the results depend on the processing

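The numbers of genes higher and lower were 366 and 247. DESeq2 gave 587 and 532, the 6 compared libraries alone 189 and 120, a threshold of 2 on the log2 scale 105 and 60, and leaving out bves KO-EX 1 and 3 gave 35 and 17; scaling by total counts gave 113 lower. Leaving out single libraries gave 93 to 365 higher and 57 to 562 lower. The cause was not tested, except that fewer libraries enter the smaller fits. Of 108 named calls, 21 held in every setting, and none changed sign. Apart from the setting that left out both bves KO-EX 1 and 3, 43 held in every setting. With single libraries left out, the change of bves, which was not called, was between -0.68 (without bves KO-EX 3) and 0.055 (without bves KO-EX 2). With bves KO-EX 1 and 3 both left out it was -2.05.

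Replicate numbers do not mark shared fish, and same-numbered bves KO-EX and WT libraries did not deviate together (r = -0.031, -0.032 and -0.007 across genes). With the replicate block 273 genes were higher and 234 lower, of which 250 and 194 were among the calls without the block; this is not read as a paired analysis.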
